A study of Mus musculus with 12 samples.

Results

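Amino acid breakdown enzymes were followed in the livers of mice given triptolide with or without crocin. They were 38 genes of the 55487 in the deposited table, chosen by gene name as enzymes of 8 routes, namely phenylalanine and tyrosine, tryptophan, histidine, proline and hydroxyproline, the branched-chain amino acids, glycine and serine, lysine, and the transamination of alanine and aspartate. All 38 matched a single row and passed the filter on low counts. The study asked how crocin, a carotenoid of saffron, changes the liver response to triptolide, a diterpenoid of Tripterygium wilfordii that inhibits transcription by RNA polymerase II.

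The mice were healthy male Kunming mice, an outbred stock, aged 7 to 8 weeks at purchase, before acclimation and dosing. No transgene is named for them. Mice of the MTP + CR group were given 300 μg/kg triptolide together with 100 mg/kg crocin, those of the MTP group the same dose of triptolide, and those of the Control group normal saline, all by oral gavage over 7 days. Liver mRNA was sequenced from 4 mice of each group, and values are given for livers 1 to 4 of a group in turn. The groups described in the study include none given crocin alone. An effect of crocin by itself therefore cannot be told apart from its effect in mice given triptolide.

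The liver removes amino acids that are not needed for protein synthesis. Aminotransferases and lyases take off the nitrogen, which goes to the urea cycle, and the carbon skeletons become glucose, ketone bodies or intermediates of the citric acid cycle. Many of these enzymes, such as tyrosine aminotransferase, tryptophan dioxygenase and serine dehydratase, are found mainly in hepatocytes and respond to glucocorticoids, glucagon and diet. The branched-chain pathway is an exception, because its later steps run in most tissues.

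The libraries held 15509226 to 18430566 counts each. CPM below is the count of a gene relative to the total of its library, on the usual CPM scale, after correction with the TMM factors of edgeR. These factors were 0.823 to 0.989 in MTP + CR livers, 1.07 to 1.52 in MTP livers and 0.836 to 0.952 in Control livers. Hepatocyte markers were abundant in every library, and the summed CPM of all 8 (Alb, Ttr, Apoa1, Apob, Serpina1a, Trf, Ahsg and Fgb) was 87061 to 125487 in MTP + CR livers, 43619 to 67311 in MTP livers and 112361 to 189349 in Control livers. The sum of 6 endothelial markers was 119 to 167 CPM in MTP + CR livers, 289 to 390.3 CPM in MTP livers and 332 to 414 CPM in Control livers, and that of 6 neutrophil markers was 9.79 to 59.2, 20.7 to 423 and 9.64 to 167 CPM in the same order of groups. The sum of 5 Kupffer cell markers was 303 to 687, 347 to 552 and 513 to 849 CPM, and that of 4 stellate cell markers was 142 to 252, 257 to 425 and 273 to 342 CPM, again in that order. No marker of these 5 lists was at 0 in every library. The 8 hepatocyte markers did not move alike, and Alb was the largest part of their sum in every library. Their log2 fold changes ran from −1.77 (Serpina1a) to −0.05 (Apob) in MTP against Control. In MTP + CR against Control they ran from −0.79 (Alb) to 1.17 (Apoa1). Markers of lymphocytes, cholangiocytes and exocrine pancreas summed to 38.7 CPM or less in any library, 3 erythroid markers to 284 CPM or less, and 2 of 3 kidney tubule markers had no count in any library. Fewer hepatocytes and less RNA per hepatocyte cannot be told apart in such bulk samples, and the part of cell makeup in the values below was not tested.

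Compared with the Control group, the enzymes were mostly lower in the MTP group. Pcbd1 and Got1 were called lower (5.26% of members, against 2.78% of the 15197 genes tested), and no member was called higher (against 2.61%). A call required an adjusted p under 0.05 in edgeR's quasi-likelihood test and a fold change above 1.5. The median log2 fold change over the 38 members was −0.73, against 0.02 over all genes tested, and 33 of 38 values were negative. An unadjusted p under 0.05 was found for 13 members, each with a negative fold change (34.2%, against 22.8% of all genes in either direction). The MTP and Control livers did not overlap for 8 members, all lower in the MTP group (21.1%, against 7.71% of all genes), and no member lay above Control in all 4 MTP livers (against 6.96%).

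Compared with the MTP group, 8 members were called higher in the MTP + CR group, namely Pcbd1, Hgd, Haao, Prodh2, Bckdha, Agxt, Gcsh and Got1 (21.1% of members, against 5.94% of all genes tested). No member was called lower (against 6.51%), and 36 of 38 fold changes were positive with a median of 1.08 on the log2 scale, against −0.03 over all genes. An unadjusted p under 0.05 was found for 19 members, and neither of the 2 with a negative fold change was among them (50%, against 33.9% of all genes in either direction). The groups did not overlap for 6 members, each higher in the MTP + CR group (15.8%, against 6.92%), and for none in the other direction (against 7.99%). Both comparisons use the same 4 MTP libraries, so their fold changes are not independent and are given side by side only.

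Between the MTP + CR and Control groups, no member was called in either direction by edgeR (against 0.329% of genes called higher and 1.00% called lower). The median log2 fold change was 0.13, against −0.02 over all genes. An unadjusted p under 0.05 was found for 3 members, Ftcd, Bckdha and Gpt, all higher in the MTP + CR group (7.89%, against 21.96% of all genes in either direction). DESeq2 and limma also called no member, with 4 members at an unadjusted p under 0.05 in DESeq2. The groups did not overlap for 4 members that were higher in the MTP + CR group, Ftcd, Bckdha, Bckdhb and Gpt (10.5%, against 7.37%), and for Kynu, which was lower (2.63%, against 8.15%).

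**Figure D1:**
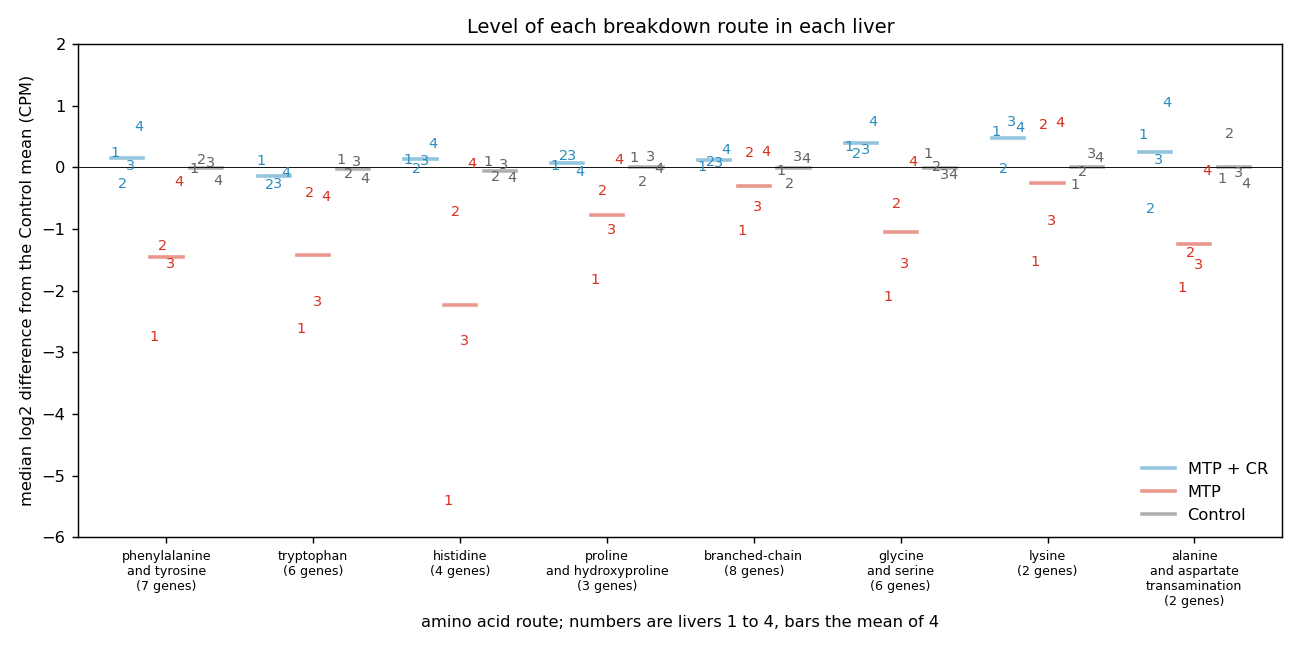
Median log2 difference in CPM from the Control mean over the genes of each route (vertical axis), for the 8 routes (horizontal axis), with a number for each liver and a bar for the mean of 4 livers. MTP livers 1 and 3 lie lowest in every route, and the histidine route reaches −5.42 in MTP liver 1, against 0.05 in MTP liver 4.

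The routes differed in their median fold changes. In the MTP group against Control, the median log2 fold change was −1.21 for histidine (4 genes), −1.15 for tryptophan (6 genes), −1.07 for phenylalanine and tyrosine (7 genes), −0.74 for proline and hydroxyproline (3 genes) and −0.71 for glycine and serine (6 genes). It was −0.26 for the 8 branched-chain genes and 0.03 for the pair of lysine genes. The transaminases Got1 and Gpt stood far apart from each other, at −2.11 and −0.10. In the MTP + CR group against MTP, the medians were 1.39 for phenylalanine and tyrosine, 1.28 for histidine, 1.24 for glycine and serine, 1.02 for tryptophan, 0.60 for proline and hydroxyproline, 0.46 for lysine and 0.26 for the branched-chain genes. All these values are on the TMM scale. By total counts alone, the branched-chain median log2 difference from Control was −0.28, 0.57, −0.11 and 0.49 in MTP livers 1 to 4. On the TMM scale it was −1.03, 0.23, −0.64 and 0.25. In MTP + CR livers it was −0.05, 0.22, 0.01 and 0.15 by total counts. The histidine median by total counts was −4.68, −0.37, −2.28 and 0.29 in MTP livers. The branched-chain values thus depended on the scaling. Differences between routes were not tested, since genes of a route are not replicates of it.

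The 4 MTP livers did not respond alike, and most of the spread in these genes lay inside this group. The median log2 difference of the 38 members from the Control mean was −2.06, −0.46, −1.33 and 0.02 in MTP livers 1 to 4. It was 0.16, −0.04, 0.10 and 0.39 in MTP + CR livers, and 0.00, −0.06, 0.04 and −0.09 in Control livers. MTP liver 1 was the lowest of its group for 34 of 38 members (against 26.6% of all genes), and MTP liver 4 was the highest for 27 (against 31.2%). The highest MTP liver exceeded the lowest by a median of 4.43-fold over the members and 1.99-fold over all genes. In MTP + CR livers the same ratio was 1.87-fold for members and 2.07-fold for all genes, and in Control livers it was 1.43-fold and 1.65-fold. A range above 4-fold was seen for 21 members in the MTP group (against 13.3% of all genes), 4 in the MTP + CR group (14.7%) and 2 in the Control group (8.67%).

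The order of the MTP livers in these enzymes was the reverse of their order in the scaling factor. The TMM factor was 1.52, 1.15, 1.31 and 1.07 in MTP livers 1 to 4, and the hepatocyte marker sum was 43619, 67311, 57954 and 66580 CPM. Scaled by total counts alone, the member median was −1.32, −0.12, −0.79 and 0.27 in these livers while the median of all tested genes was 0.74, 0.33, 0.53 and 0.26. The members therefore lay below the median gene in MTP livers 1 to 3 on either scale. The part of the scaling and of the hepatocyte share, for which this marker sum is only a rough measure, in this order was not tested.

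**Figure D2:**
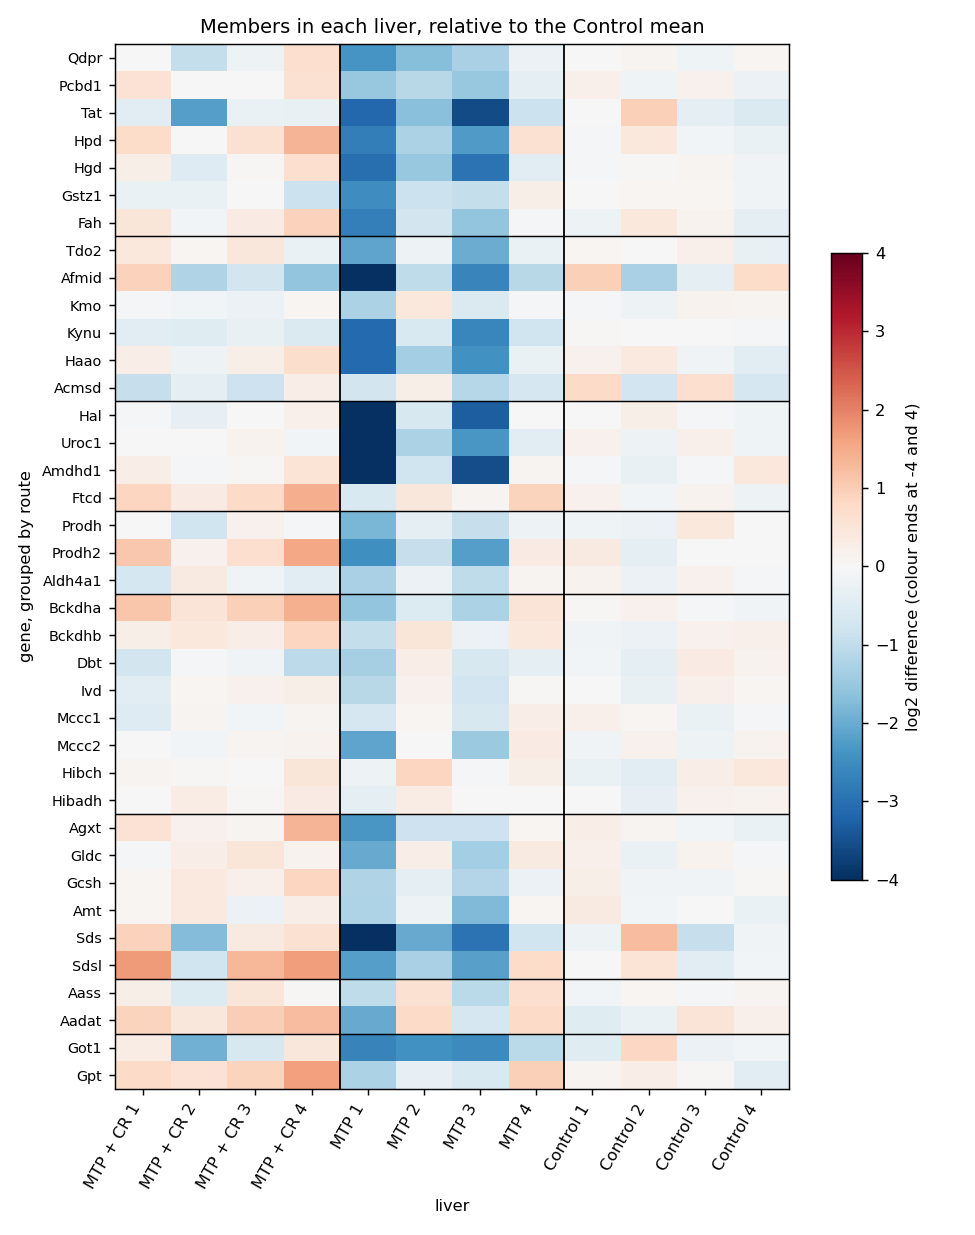
Log2 difference in CPM from the Control mean for each of the 38 genes (rows, grouped by route in the order of the text) in each of the 12 livers (columns), with the colour range ending at −4 and 4. MTP livers 1 and 3 are blue in most rows, while the rows of the branched-chain genes are paler, apart from Mccc2 and Bckdha.

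Per unit of gene length, the most abundant members belonged to tyrosine and tryptophan breakdown. Hpd averaged 624 ± 207 FPKM in MTP + CR livers, 278 ± 284 FPKM in MTP livers and 392 ± 91.9 FPKM in Control livers (SD, n = 4 each, fragments scaled to gene length and library total, as deposited). Tat averaged 295 ± 122, 162 ± 114 and 523 ± 280.0 FPKM in the same groups, and Tdo2 averaged 384 ± 84.8, 241 ± 131 and 342 ± 43.7 FPKM. These genes held the highest 3 levels in every group, with Hpd on top in MTP + CR and MTP livers and Tat on top in Control livers, where their spreads overlapped. Mccc1 was lowest in all groups, at 2.17 ± 0.487 FPKM in MTP + CR livers, 2.79 ± 0.564 FPKM in MTP livers and 2.38 ± 0.443 FPKM in Control livers.

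Promoter sequences of 4 members are shown, Pcbd1 and Got1 because they were called in both comparisons with the MTP group, and Hal and Amdhd1 because their levels differed most among the MTP livers. The 120 bases before each RefSeq transcription start (build GRCm38.p6) are printed along the strand of the gene, with capitals marking matches to the letters of a motif named after the sequences.
Pcbd1 (chr10:61089211-61089330, plus strand): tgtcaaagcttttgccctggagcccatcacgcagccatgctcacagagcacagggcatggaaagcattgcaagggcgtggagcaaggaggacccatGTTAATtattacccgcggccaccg
Got1 (chr19:43524606-43524725, minus strand): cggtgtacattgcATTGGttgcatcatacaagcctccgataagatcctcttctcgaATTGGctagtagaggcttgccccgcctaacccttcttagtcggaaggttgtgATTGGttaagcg
Hal (chr10:93488648-93488767, plus strand): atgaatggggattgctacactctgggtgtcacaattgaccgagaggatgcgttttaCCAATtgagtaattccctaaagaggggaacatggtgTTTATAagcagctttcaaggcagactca
Amdhd1 (chr10:93540034-93540153, minus strand): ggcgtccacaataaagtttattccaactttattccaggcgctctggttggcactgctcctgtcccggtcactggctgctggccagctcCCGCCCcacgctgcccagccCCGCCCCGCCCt

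The Pcbd1 window held GTTAAT, letters of the binding element of HNF1, with its first base 24 bases before the start. Got1 held CCAAT, read as ATTGG on the printed strand, at 107, 64 and 12 bases before the start. Hal held TATAAA on the opposite strand only, read as TTTATA on the printed strand, at 28 bases before the start, and CCAAT on the printed strand at 64 bases, and Amdhd1 held GGGCGG, read as CCGCCC, at 32, 12 and 7 bases, of which the last pair share a base. The neighbours Hal and Amdhd1, both lowest in MTP livers 1 and 3, had none of the searched motifs in common in this window.

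The same letters were searched on both strands of the 250 bases before the start, in the 33 members with a RefSeq promoter and in 32851 mouse promoters (Kynu, Dbt, Sds, Sdsl and Gpt had no entry). CCAAT was present in 19 of 33 members (57.6%, against 33.9% of all promoters) and GGGCGG in 14 (42.4%, against 32.7%). TATAAA was present in 5 (Pcbd1, Ftcd, Hal, Hgd and Tdo2, 15.2%, against 12.4%), GTTAAT in 5 (Pcbd1, Ftcd, Haao, Prodh2 and Bckdhb, 15.2%, against 6.43%) and the C/EBP letters TTGCNNAA in 5 (15.2%, against 9.56%). AGAACA, part of the glucocorticoid receptor element, was present in Agxt, Haao and Bckdhb (9.09%, against 16.1%). The letters CAAAGTCCA of HNF4 were found in Aadat alone (3.03%, against 0.384%), and the E-box CACGTG in Mccc2 alone (3.03%, against 6.02%). A member was counted if any promoter listed for it held the letters, while the share over all was taken over single promoters. These are matches of letters, not binding sites, and no test was made on them.

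The route of phenylalanine and tyrosine leads through tyrosine to fumarate and acetoacetate. Of its 7 members, 1 was called lower in the MTP group against Control and 2 were called higher in the MTP + CR group against MTP. Pcbd1 (ENSMUSG00000020098, chromosome 10, 61089331 to 61094324), the dehydratase that takes part in regenerating the cofactor tetrahydrobiopterin and also binds HNF1, had 286, 195, 195 and 291 CPM in MTP + CR livers, 66.4, 89.3, 66.8 and 145 CPM in MTP livers and 223, 169, 218 and 164 CPM in Control livers. All 4 MTP livers lay below all other livers. The log2 fold change was −1.07 ± 0.28 (edgeR adjusted p = 0.0446) for MTP against Control and 1.39 ± 0.29 (edgeR adjusted p = 0.0166) for MTP + CR against MTP, where ± gives the standard error here and below.

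Tat (ENSMUSG00000001670, chromosome 8, 109990437 to 109999803), tyrosine aminotransferase, which opens the degradation of tyrosine, had 985, 294, 1121 and 1099 CPM in MTP + CR livers, 153, 423, 111 and 742 CPM in MTP livers and 1357, 2597, 1029 and 904 CPM in Control livers. The MTP livers lay below the Control livers without overlap, and MTP + CR liver 2 lay among the MTP livers, far below the other 3 of its group. The log2 fold change was −2.04 ± 0.61 (edgeR adjusted p = 0.0668) for MTP against Control and 1.29 ± 0.59 (edgeR adjusted p = 0.143) for MTP + CR against MTP, so neither passed. Hgd (ENSMUSG00000022821, chromosome 16, 37580153 to 37632020), homogentisate dioxygenase, which opens the aromatic ring, had 558, 337, 489 and 758 CPM in MTP + CR livers, 58.7, 167, 61.0 and 353 CPM in MTP livers and 467, 497, 516 and 434 CPM in Control livers. Hgd rose in the MTP + CR group by 1.74 ± 0.50 (edgeR adjusted p = 0.0403) on the log2 scale, although MTP liver 4 reached the range of the MTP + CR livers. Against Control its MTP value was −1.58 ± 0.49 (edgeR adjusted p = 0.0771), with no overlap between these groups.

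The other 4 members of this route had the same direction but did not pass the test. Qdpr, which recycles dihydrobiopterin, had 111 to 339 CPM in MTP + CR livers, 42.0 to 181 CPM in MTP livers and 191 to 234 CPM in Control livers, with fold changes of −1.19 (MTP against Control, adjusted p = 0.105 in edgeR) and 1.18 (MTP + CR against MTP, 0.0703). Hpd, the dioxygenase that forms homogentisate, had 1191 to 3144 CPM in MTP + CR livers, 178 to 1859.9 CPM in MTP livers and 1007 to 1636 CPM in Control livers, so its MTP livers reached into the range of the MTP + CR livers. Fah, which releases fumarate and acetoacetate in the last step, had 396 to 817 CPM in MTP + CR livers, 64.2 to 419 CPM in MTP livers and 334 to 579.6 CPM in Control livers, and its fold change in MTP + CR against MTP was 1.41 ± 0.46 (edgeR adjusted p = 0.0580). Gstz1, the maleylacetoacetate isomerase, had a log2 fold change of −0.72 in MTP against Control and 0.41 in MTP + CR against MTP.

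**Figure D3:**
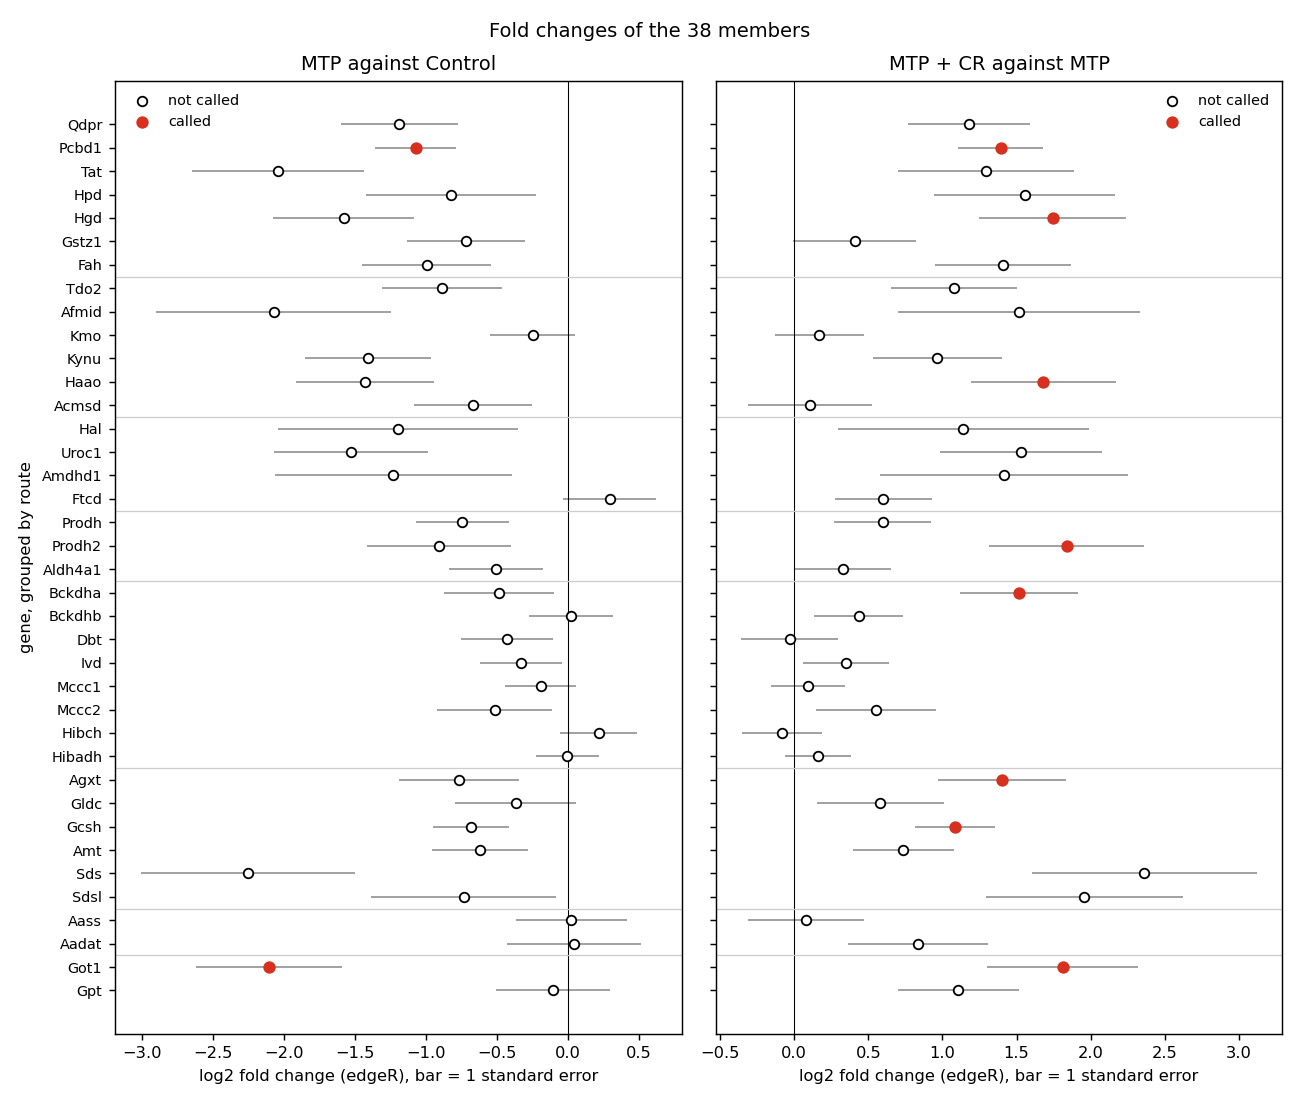
Log2 fold change of each of the 38 members (rows, grouped by route) with 1 standard error as a bar, for MTP against Control (left) and MTP + CR against MTP (right), with members that passed the test filled. Pcbd1 and Got1 are filled on both sides, and the values of the branched-chain genes other than Bckdha lie between −0.52 and 0.55.

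Tryptophan is oxidised along the kynurenine pathway, which also feeds the synthesis of NAD. Of 6 members, none was called in MTP against Control and 1, Haao, was called higher in MTP + CR against MTP. Tdo2 (ENSMUSG00000028011, chromosome 3, 81957090 to 81976202), tryptophan dioxygenase, the entry step, had 2501, 2000.1, 2568 and 1579.7 CPM in MTP + CR livers, 432, 1632, 480.1 and 1554 CPM in MTP livers and 2003, 1903, 2159 and 1519 CPM in Control livers. MTP livers 1 and 3 stood far below the other 10 livers, and MTP livers 2 and 4 lay within their range. The fold change was −0.89 ± 0.42 (edgeR adjusted p = 0.230) in MTP against Control and 1.08 ± 0.42 (edgeR adjusted p = 0.0962) in MTP + CR against MTP.

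Kynu (ENSMUSG00000026866, chromosome 2, 43555329 to 43682715), kynureninase, had 153, 146, 165 and 136 CPM in MTP + CR livers, 23.3, 132, 33.5 and 118 CPM in MTP livers and 210.4, 202, 208 and 196 CPM in Control livers. The 3 groups did not overlap, with the MTP + CR livers between the MTP and the Control livers, but no comparison passed the test (−1.41 ± 0.44 (edgeR adjusted p = 0.0773) for MTP against Control, 0.97 ± 0.44 (edgeR adjusted p = 0.138) for MTP + CR against MTP and −0.44 ± 0.43 (edgeR adjusted p = 0.563) for MTP + CR against Control). Haao (ENSMUSG00000000673, chromosome 17, 83831156 to 83847963), which opens the ring of 3-hydroxyanthranilate on the way to quinolinate, had 352, 259, 349.9 and 482 CPM in MTP + CR livers, 33.9, 115, 55.6 and 245 CPM in MTP livers and 331, 389, 271 and 219 CPM in Control livers. Haao rose in the MTP + CR group against MTP by 1.68 ± 0.49 (edgeR adjusted p = 0.0429) with no overlap, and its value in MTP against Control was −1.43 ± 0.49 (edgeR adjusted p = 0.0991).

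The remaining members of the tryptophan route were weakly separated. Afmid, the formamidase of the pathway, had 23.3 to 130.5 CPM in MTP + CR livers, 1.07 to 34.6 CPM in MTP livers and 28.1 to 136 CPM in Control livers, and varied over more than 4-fold inside each group. Kmo, the monooxygenase, had 199 to 247 CPM in MTP + CR livers, 96.8 to 313 CPM in MTP livers and 204 to 257 CPM in Control livers, so that its ranges overlapped throughout. Acmsd, which diverts the pathway away from NAD, had 10.7 to 24.6 CPM in MTP + CR livers, 9.21 to 23.8 CPM in MTP livers and 11.8 to 34.8 CPM in Control livers. Exons of Afmid and Acmsd overlap those of other genes, so a part of their reads cannot be assigned with certainty.

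Histidine is broken down to glutamate through urocanate. None of the 4 members passed the test in either comparison, and this route had the widest differences among MTP livers. Hal (ENSMUSG00000020017, chromosome 10, 93488768 to 93519304), histidine ammonia-lyase, the entry step, had 319, 267, 334 and 389 CPM in MTP + CR livers, 2.46, 219, 34.2 and 339 CPM in MTP livers and 338, 395, 327 and 299.6 CPM in Control livers. Within the MTP group the highest liver exceeded the lowest by 138-fold, against 1.46-fold in the MTP + CR group and 1.32-fold in the Control group. Amdhd1 (ENSMUSG00000015890, chromosome 10, 93523338 to 93540033), imidazolonepropionase, had 274, 216, 237 and 334 CPM in MTP + CR livers, 2.42, 131, 19.7 and 244 CPM in MTP livers and 219, 187, 216 and 309.6 CPM in Control livers, a range of 101-fold among MTP livers. These 2 genes were singled out after their values were seen. In both, MTP livers 1 and 3 lay far below the other 10 livers and MTP liver 4 lay within the Control range.

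The fold changes of Hal and Amdhd1 had large errors. They were −1.20 ± 0.85 (edgeR adjusted p = 0.440) and −1.23 ± 0.83 (edgeR adjusted p = 0.418) in MTP against Control, and 1.14 ± 0.84 (edgeR adjusted p = 0.355) and 1.42 ± 0.84 (edgeR adjusted p = 0.247) in MTP + CR against MTP. Uroc1 (ENSMUSG00000034456, chromosome 6, 90333284 to 90364551), urocanate hydratase, had 358, 371, 403 and 338 CPM in MTP + CR livers, 17.9, 151, 72.4 and 268 CPM in MTP livers and 408, 315, 424 and 324 CPM in Control livers. All MTP livers lay below all other livers, with −1.53 ± 0.55 (edgeR adjusted p = 0.114) against Control and 1.53 ± 0.55 (edgeR adjusted p = 0.0744) for MTP + CR against MTP. Ftcd (ENSMUSG00000001155, chromosome 10, 76575648 to 76590338), which passes the formimino group of histidine to folate, did not follow the route and had 706, 487, 664 and 1061 CPM in MTP + CR livers, 254, 529.8, 419 and 719.6 CPM in MTP livers and 440.4, 362, 428 and 337 CPM in Control livers. Its MTP livers spanned the Control range, and its MTP + CR livers lay above all Control livers, with 0.29 ± 0.33 (edgeR adjusted p = 0.651) for MTP against Control and 0.90 ± 0.33 (edgeR adjusted p = 0.146) for MTP + CR against Control.

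**Figure D4:**
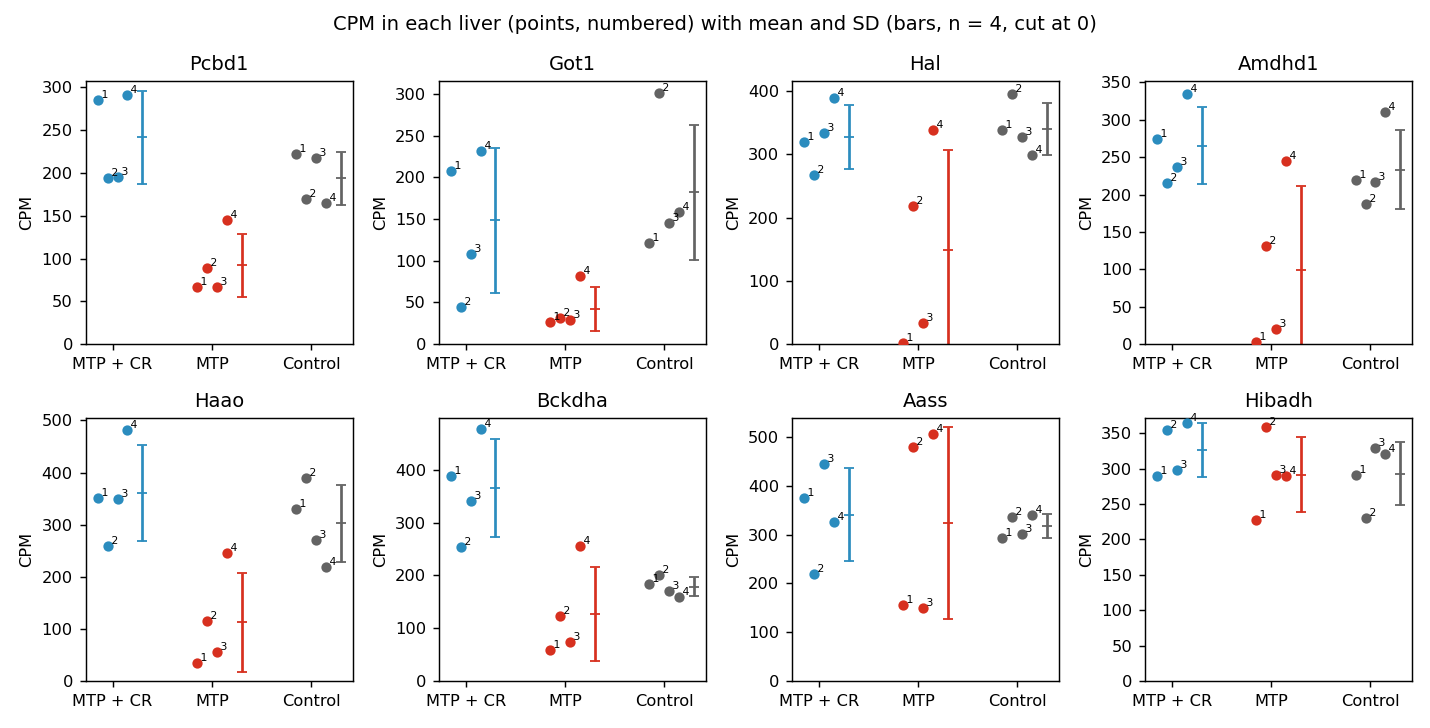
CPM of 8 members in each liver (numbered points), with the mean and SD of 4 livers as a bar, for MTP + CR, MTP and Control. Hal and Amdhd1 range from about 2 CPM in MTP liver 1 to 339 and 244 CPM in MTP liver 4, whereas the MTP livers of Hibadh lie among those of the other groups.

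Proline and hydroxyproline converge on the dehydrogenase Aldh4a1. Prodh2 (ENSMUSG00000036892, chromosome 7, 30493622 to 30513402), the hydroxyproline dehydrogenase, had 190.2, 102, 145 and 265 CPM in MTP + CR livers, 16.6, 47.4, 19.6 and 113 CPM in MTP livers and 117, 71.1, 90.7 and 88.8 CPM in Control livers. It rose in the MTP + CR group by 1.84 ± 0.52 (edgeR adjusted p = 0.0392) against MTP, with MTP liver 4 above MTP + CR liver 2, and had −0.91 ± 0.51 (edgeR adjusted p = 0.316) in MTP against Control. Prodh (ENSMUSG00000003526, chromosome 16, 18060357 to 18090203), the proline dehydrogenase, had 95.9, 54.2, 108 and 90.6 CPM in MTP + CR livers, 26.7, 72.6, 49.6 and 81.8 CPM in MTP livers and 83.6, 81.5, 128 and 93.1 CPM in Control livers. Its fold change was −0.74 ± 0.33 (edgeR adjusted p = 0.193) in MTP against Control and 0.60 ± 0.33 (edgeR adjusted p = 0.213) in MTP + CR against MTP. Aldh4a1 (ENSMUSG00000028737, chromosome 4, 139622866 to 139649690) had 259.9, 534, 385 and 314 CPM in MTP + CR livers, 169, 356, 209 and 457 CPM in MTP livers and 464, 357, 472 and 397 CPM in Control livers, with overlap between all groups and −0.51 ± 0.33 (edgeR adjusted p = 0.399) in MTP against Control. Prodh2 was thus the single member of the route that passed, and only in MTP + CR against MTP.

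Leucine, isoleucine and valine are oxidised after the branched-chain ketoacid dehydrogenase complex. Of its 8 members, none was called in MTP against Control, and Bckdha alone was called in MTP + CR against MTP. Bckdha (ENSMUSG00000060376, chromosome 7, 25629946 to 25658981), the alpha chain of the E1 subunit, had 388, 254, 342 and 477 CPM in MTP + CR livers, 59.1, 123, 73.8 and 255 CPM in MTP livers and 183, 201, 171 and 159.8 CPM in Control livers. The MTP + CR livers all exceeded the Control livers, and MTP liver 4 just exceeded MTP + CR liver 2. The fold change was 1.52 ± 0.39 (edgeR adjusted p = 0.0320) in MTP + CR against MTP, 1.03 ± 0.39 (edgeR adjusted p = 0.155) in MTP + CR against Control and −0.48 ± 0.39 (edgeR adjusted p = 0.502) in MTP against Control. Exons of Bckdha overlap B3gnt8 on the other strand, and the strand setting of the counting is not given in the sources used here.

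The partner subunits did not show this difference in size. Bckdhb, the beta chain of E1, had 191 to 299 CPM in MTP + CR livers, 84.4 to 227 CPM in MTP livers and 138 to 189 CPM in Control livers, with 0.44 ± 0.30 (edgeR adjusted p = 0.318) in MTP + CR against MTP. Dbt (ENSMUSG00000000340, chromosome 3, 116513070 to 116549981), the E2 subunit, had 82.6, 132, 123 and 65.4 CPM in MTP + CR livers, 54.7, 164, 87.2 and 105 CPM in MTP livers and 125, 107, 172 and 149.8 CPM in Control livers, with −0.03 ± 0.33 (edgeR adjusted p = 0.957) in MTP + CR against MTP and −0.43 ± 0.33 (edgeR adjusted p = 0.478) in MTP against Control. The direction of the Dbt value turned under several settings in MTP + CR against MTP, and with total-count scaling alone in MTP against Control. Differences between subunits were not tested.

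The enzymes after the complex had small fold changes. Ivd, which oxidises the leucine intermediate isovaleryl-CoA, had −0.33 in MTP against Control and 0.35 in MTP + CR against MTP. Mccc1 and Mccc2, the subunits of methylcrotonyl-CoA carboxylase of the same branch, had −0.19 and −0.52 in MTP against Control, and 0.09 and 0.55 in MTP + CR against MTP. Mccc2 had 55.5 to 66.3 CPM in MTP + CR livers, 13.9 to 74.7 CPM in MTP livers and 52.1 to 68.0 CPM in Control livers, with only MTP livers 1 and 3 below the rest. Hibch and Hibadh, which act on valine, had 0.22 and −0.01 in MTP against Control and −0.08 and 0.16 in MTP + CR against MTP. Hibadh was the steadiest of all members in the MTP group, with 289.7 to 364 CPM in MTP + CR livers, 228 to 358 CPM in MTP livers and 231 to 329 CPM in Control livers.

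Glycine and serine are linked to glyoxylate and pyruvate. Of 6 members, none was called in MTP against Control, and Agxt and Gcsh were called higher in MTP + CR against MTP. Agxt (ENSMUSG00000026272, chromosome 1, 93135240 to 93145421), the peroxisomal enzyme that turns glyoxylate into glycine, had 470.2, 353, 336 and 815 CPM in MTP + CR livers, 62.0, 176, 175 and 333 CPM in MTP livers and 379, 338, 291 and 262 CPM in Control livers. Its MTP + CR livers lay above all MTP livers, with 1.40 ± 0.43 (edgeR adjusted p = 0.0488), close to the threshold, and −0.77 ± 0.42 (edgeR adjusted p = 0.309) for MTP against Control. Gcsh (ENSMUSG00000034424, chromosome 8, 116981810 to 116993537), the H protein of the glycine cleavage system, had 104, 129, 114 and 179 CPM in MTP + CR livers, 42.4, 76.5, 43.6 and 84.7 CPM in MTP livers and 116, 89.3, 90.5 and 102 CPM in Control livers. All MTP livers lay below all other livers, and the fold change was 1.09 ± 0.27 (edgeR adjusted p = 0.0291) in MTP + CR against MTP and −0.68 ± 0.27 (edgeR adjusted p = 0.148) in MTP against Control. The other parts of that system were less separated, with Gldc, the decarboxylase, at 0.58 and Amt, the aminomethyltransferase, at 0.74 in MTP + CR against MTP (adjusted p = 0.354 and 0.145 in edgeR).

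Sds (ENSMUSG00000029597, chromosome 5, 120476526 to 120483932), serine dehydratase, which turns serine into pyruvate, had 298, 46.8, 201 and 239 CPM in MTP + CR livers, 4.96, 38.6, 20.2 and 89.0 CPM in MTP livers and 137, 369.8, 82.1 and 141 CPM in Control livers. It had the largest fold changes of all 38 members in both comparisons, yet neither passed the test, with −2.26 ± 0.75 (edgeR adjusted p = 0.0947) in MTP against Control and 2.36 ± 0.76 (edgeR adjusted p = 0.0555) in MTP + CR against MTP. MTP + CR liver 2 lay among the MTP livers, and Control liver 2 was the highest of all. The related gene Sdsl, with 4.37 to 25.6 CPM in MTP + CR livers, 1.60 to 13.1 CPM in MTP livers and 5.61 to 11.5 CPM in Control livers, is the neighbour of Sds, with 3715 bases between their starts on chromosome 5 (mm10). Its fold change was 1.96 ± 0.66 (edgeR adjusted p = 0.0658) in MTP + CR against MTP. Hal and Amdhd1 are also neighbours, with 4033 bases between their ends on chromosome 10.

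Lysine is degraded in the liver mainly through saccharopine. Aass (ENSMUSG00000029695, chromosome 6, 23072173 to 23132986), the bifunctional enzyme of that entry, had 374, 219, 445 and 326 CPM in MTP + CR livers, 155, 480.3, 149.9 and 506 CPM in MTP livers and 293, 336, 300.3 and 340.4 CPM in Control livers. MTP livers 1 and 3 lay below and MTP livers 2 and 4 above all Control livers, so the mean fold changes of 0.02 ± 0.39 (edgeR adjusted p = 0.980) against Control and 0.08 ± 0.39 (edgeR adjusted p = 0.905) for MTP + CR against MTP hide a wide spread. Aadat (ENSMUSG00000057228, chromosome 8, 60505932 to 60545677), the aminotransferase of aminoadipate and kynurenine, had 156, 116, 166 and 198 CPM in MTP + CR livers, 20.5, 143, 52.7 and 141 CPM in MTP livers and 60.2, 70.2, 119.8 and 96.6 CPM in Control livers. The highest levels were in MTP + CR livers, but the fold changes of 0.83 ± 0.47 (edgeR adjusted p = 0.229) against MTP and 0.88 ± 0.47 (edgeR adjusted p = 0.291) against Control did not pass.

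The last pair of members are transaminases that link alanine and aspartate to central metabolism. Got1 (ENSMUSG00000025190, chromosome 19, 43499752 to 43524605), the cytosolic aspartate aminotransferase, had 208, 45.1, 108 and 232 CPM in MTP + CR livers, 26.9, 31.6, 29.3 and 81.1 CPM in MTP livers and 122, 301, 145 and 159 CPM in Control livers. It fell in the MTP group against Control by 2.11 ± 0.51 (edgeR adjusted p = 0.0329) on the log2 scale, without overlap, and rose in the MTP + CR group against MTP by 1.81 ± 0.51 (edgeR adjusted p = 0.0382). MTP + CR liver 2 lay below MTP liver 4, as it had for Tat and Sds. Gpt, the alanine aminotransferase, had 182 to 380.2 CPM in MTP + CR livers, 51.4 to 235 CPM in MTP livers and 91.4 to 146 CPM in Control livers. Its MTP + CR livers lay above all Control livers, but the fold changes of 1.11 ± 0.41 (edgeR adjusted p = 0.0806) against MTP and 1.00 ± 0.41 (edgeR adjusted p = 0.176) against Control did not pass the test.

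The number of calls depended on single libraries, for the members as for all genes. In MTP + CR against MTP, the 8 calls became 0 without MTP liver 1 or without MTP liver 3, 2 without MTP liver 2 and 18 without MTP liver 4. Over all genes, the 1892 calls of this comparison became 304, 803, 261 and 4009 without MTP livers 1 to 4. The 8 member calls became 1, 11, 2 and 1 without MTP + CR livers 1 to 4, and 4, 5, 3 and 3 without Control livers 1 to 4, which share the estimate of the spread. The calls over all genes became 405, 2192, 850 and 586 without MTP + CR livers 1 to 4, and 1249 to 1436 without a Control liver. The median log2 fold change of the members was 0.77 without MTP liver 1 and 1.33 without MTP liver 4. In MTP against Control, the 2 calls became 0 without MTP liver 1 or 3 or without any single Control liver, 1 without MTP + CR liver 1 or 3, and 16 without MTP liver 4. Without MTP liver 2, both calls were lost and Kynu alone was called (edgeR adjusted p = 0.0456). Over all genes, the 820 calls became 333, 668, 244 and 2009 without MTP livers 1 to 4, and 277 to 562 without a Control liver. They became 684 without MTP + CR liver 1 and 675 without MTP + CR liver 3. The members' median in MTP against Control was −0.49 without MTP liver 1 and −1.13 without MTP liver 4.

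Single calls differed in how far they held. Pcbd1 was called in MTP + CR against MTP with any library left out other than MTP liver 1 or MTP liver 3, and Gcsh with any other than MTP livers 1 and 3 and MTP + CR livers 1 and 4. Of the fits that left out a library, Hgd, Haao and Agxt were called only in those without MTP liver 4 or MTP + CR liver 2. Bckdha lost its call without MTP liver 1, 2 or 3 and without MTP + CR liver 1, 3 or 4. Prodh2 lost its call without these 6 libraries and without Control liver 1, 3 or 4, and Got1 without these 6 and Control liver 3 or 4. A fit of the 8 libraries of both groups alone left none of the 8 calls, with edgeR adjusted p from 0.0516 (Pcbd1) to 0.106 (Agxt). In MTP against Control, Pcbd1 lost its call in 9 of the 12 fits that left out a library and Got1 in 7.

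Other genes related to amino acid breakdown were read for comparison, from a list of 42 that are not members. They were listed under the same routes, apart from Glud1, Gls2 and Oat, listed under glutamate and ornithine. The list also holds genes that do not themselves break down amino acids, such as Dnajc12, Bckdk and Ppm1k. Ido1, Bcat1 and Tdh were under the filter on low counts, and of the other 39, none was called higher (against 2.61% of all genes tested) and 2 were called lower in MTP against Control (Kyat1 and Qprt, 5.13%, against 2.78%). In MTP + CR against MTP, 9 were called higher (Pts, Kyat1, Qprt, Bcat2, Acad8, Hsd17b10, Shmt2, Pipox and Got2, 23.1%, against 5.94%) and none lower (against 6.51%). None was called in MTP + CR against Control, where 6 had an unadjusted p under 0.05. The median log2 fold changes were −0.37, 0.68 and 0.31 in these 3 comparisons, against −0.73, 1.08 and 0.13 for the members.

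Kyat1, a kynurenine aminotransferase, had 180.4, 86.6, 109.6 and 113 CPM in MTP + CR livers, 10.1, 24.1, 11.1 and 32.4 CPM in MTP livers and 128, 93.2, 131 and 77.1 CPM in Control livers. All 4 MTP livers lay below all other livers. Kyat1 had −2.47 ± 0.39 (edgeR adjusted p = 0.00683) in MTP against Control and 2.66 ± 0.39 (edgeR adjusted p = 0.00449) in MTP + CR against MTP, and its calls held with each library left out in turn. Qprt, which continues the kynurenine pathway from quinolinate to NAD, had −1.07 ± 0.28 (edgeR adjusted p = 0.0446) and 1.04 ± 0.28 (edgeR adjusted p = 0.0348) in these comparisons.

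The other called genes of this list were seen in MTP + CR against MTP alone. Pipox, which oxidises pipecolate and sarcosine, averaged 332 ± 34.6 CPM in MTP + CR livers, 121 ± 72.0 CPM in MTP livers and 295 ± 3.46 CPM in Control livers (SD, n = 4 each) and had 1.46 ± 0.39 (edgeR adjusted p = 0.0345), with no overlap between MTP and the other groups. The mitochondrial aspartate aminotransferase Got2 had a log2 fold change of 0.93 ± 0.29 (edgeR adjusted p = 0.0496), and the mitochondrial serine hydroxymethyltransferase Shmt2 had 0.84 ± 0.25 (edgeR adjusted p = 0.0439). Pts, which makes the tetrahydrobiopterin precursor, had 0.90 ± 0.27 (edgeR adjusted p = 0.0455), and the branched-chain genes Bcat2, the mitochondrial aminotransferase, and Acad8, a dehydrogenase of valine, had 1.49 ± 0.40 (edgeR adjusted p = 0.0339) and 0.90 ± 0.28 (edgeR adjusted p = 0.0496). Hsd17b10, a dehydrogenase of isoleucine, had 1.57 ± 0.46 (edgeR adjusted p = 0.0429) and the smallest p of the list in MTP + CR against Control, at 1.65 ± 0.46 (edgeR adjusted p = 0.0816). Of these, Acad8, Shmt2 and Got2 lost their calls in 11 of the 12 fits that left out a library, Pts and Hsd17b10 in 10, Pipox and Qprt in 6 and Bcat2 in 5. The call of Qprt in MTP against Control was lost in 9 of these fits.

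Gene length moved with the fold changes in the comparisons that involve MTP + CR livers. Across the 15197 genes, Spearman's correlation of gene length with the log2 fold change was −0.28 in MTP + CR against MTP, −0.34 in MTP + CR against Control and 0.01 in MTP against Control, as a description over genes of the same libraries. The members were shorter than most, with a median length of 4193 bases, against 5674 for all tested genes. After removal of the length trend of each library, tried after the values were seen, 7 of the 8 calls in MTP + CR against MTP remained, with a member median of 1.02. Agxt lost its call (edgeR adjusted p = 0.0639).

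Exons of 9 of the 38 members overlap those of another gene (Qdpr, Gstz1, Afmid, Acmsd, Aldh4a1, Bckdha, Mccc1, Hibadh and Sds), and their counts are uncertain to that extent. Of these, Bckdha alone was called.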

How the data were processed

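Liver RNA of 12 mice, 4 per group and 1 library per mouse, was measured by mRNA-seq. The deposited counts are whole numbers for 55487 genes, which the authors obtained from trimmed reads with Hisat2 for mapping and Stringtie for counting. The FPKM values, also made by the authors and deposited beside the counts, equal counts divided by gene length and library total. The submitters' processing notes name Bowtie 0.12.2 and mm10 instead, and the annotation release and strand setting are not given in the sources used here.

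The counts entered edgeR 4.0.16 (R 4.3.3). The filter filterByExpr, at a minimum count of 10 and a minimum total of 15, left 15197 genes, and libraries were scaled with TMM. A single quasi-likelihood fit over the 3 groups, with Benjamini-Hochberg adjustment over all tested genes, gave the comparisons. Log2 levels of single livers used CPM with a small offset (0.125). Coordinates are those of GENCODE vM21 on mm10. Promoters came from RefSeq (GRCm38.p6). FPKM served only for levels between genes and as an alternative, with pseudocounts of 1 and 0.1.

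The members and all gene lists were chosen with earlier results of these data known. Values of every liver are given for members called in a comparison, for the member of each route with the smallest p in each comparison with the MTP group, and for the member of each route with the highest FPKM in Control. Of the other breakdown genes, those called and those with the smallest p were named, and a further gene of these routes is not reported here. Same-number livers of different groups correlated at −0.19 to 0.20 in their deviations, so groups were treated as unpaired. P-values of the main fit set a group difference against the spread between mice, estimated for each gene over all 3 groups together. The spread of the members was unequal between the groups, being widest in the MTP group. Alternatives were DESeq2 1.42.0, limma 3.58.1 (trend and voom), other scaling, filters and thresholds, a fit of both compared groups alone, a replicate block, removal of the gene length trend (added after the values were seen) and each library left out. The procedure was tested on simulated data in which each gene had the same spread in all groups. Unequal spread between groups, as seen for the members, was not simulated.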

Additional observations from a re-analysis of the deposited data

Results flagged for a closer look

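The spread of 4 livers was checked in 63 groups of named genes, and in 2 a single liver stood apart from the other 3 by more than Dixon's limit for the gap as a share of the range. Chance gives about 1 such group in 20. Tat was at 294.4 CPM in MTP + CR liver 2, far below the other 3 livers of its group (985, 1121 and 1099 CPM), with a gap of 0.835 of the range. Got1 was at 81.1 CPM in MTP liver 4, above the other 3 MTP livers (26.9, 31.6 and 29.3 CPM), with a gap of 0.913 of the range. MTP + CR liver 2 was the lowest of its group for 20 of the 38 members, against 26.5% of all genes.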

How the results depend on the processing

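For the 38 members, the direction of the calls was the same under every alternative that gave calls, all lower in MTP against Control and all higher in MTP + CR against MTP, while their number was not. In MTP against Control, the 2 calls became 1 with no filter or with only the compared groups in the fit, 9 with DESeq2, 6 and 5 with limma-trend on log2(FPKM + 1) and log2(FPKM + 0.1), and 22 with limma-voom and quality weights, where the 820 calls over all genes became 674, 633, 1764, 2103, 2417 and 2662 in this order. In MTP + CR against MTP, the 8 calls became 0 with only the compared groups, 16 with DESeq2 and 20 with limma-voom, while the 1892 calls over all genes became 320, 3318 and 3228. Both limma-trend fits called 10 members there, of which 5 were among the 8, and 3376 and 4491 genes in all. With a library left out, the counts ran from 0 to 16 in MTP against Control and from 0 to 18 in MTP + CR against MTP, and stayed at 0 in MTP + CR against Control, as under every other setting. The causes were not tested.

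With the replicate number as a block, 1 member was called in MTP against Control and 8 in MTP + CR against MTP, of which 7 were shared with the unblocked fit. The numbers do not pair the mice. Under the block Dbt turned to 0.00082 in MTP + CR against MTP, Aass to −0.075 and Aadat to −0.13 in MTP against Control. The block ended the calls of Pcbd1 (edgeR adjusted p = 0.060) and, outside the members, Qprt (0.060) in MTP against Control, and those of Agxt (0.052), Pts (0.054), Shmt2 (0.055) and Got2 (0.056) in MTP + CR against MTP. The calls of Pcbd1 and Qprt in MTP against Control were also lost with total-count scaling, no filter, only the compared groups and both limma-trend fits. With total-count scaling, Tat (edgeR adjusted p = 0.040) was called there in place of Pcbd1. In MTP + CR against MTP that scaling ended the calls of Agxt (edgeR adjusted p = 0.061) and Gcsh (0.063) and added Sds (0.043). Outside the members, it ended those of Pts (edgeR adjusted p = 0.154), Qprt (0.080), Acad8 (0.157), Shmt2 (0.177) and Got2 (0.165). Both limma-trend fits ended these calls as well, while those of Kyat1, Bcat2, Hsd17b10 and Pipox stayed.

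Scaling by total counts shifted the median of all genes to 0.50 in MTP against Control and −0.54 in MTP + CR against MTP, and turned the split of all calls to 2610 higher and 321 lower in the first and 413 higher and 4133 lower in the second (main split 397 and 423, and 903 and 989). The members' medians were then −0.34 and 0.65. Among the 21 members described by library, values of 4 that were not called changed sign in these comparisons under an alternative. Sign changes of the other members are not counted here. In MTP + CR against MTP, Aldh4a1 (0.33 in the main setting) was −0.088 with total counts and −0.11 in both limma-trend fits, Aass was −0.35, −0.23 and −0.23 in these 3 settings and −0.016 with the length trend removed, and Dbt was 0.19 with limma-voom. In MTP against Control, Dbt (−0.43 in the main setting) was 0.0014 with total counts, and Aass and Aadat were −0.37 and −0.50 with limma-voom. With a library left out, Dbt ran from −0.24 to 0.30 and Aass from −0.16 to 0.39 in MTP + CR against MTP, and Aass from −0.30 to 0.26 and Aadat from −0.29 to 0.37 in MTP against Control. Counting error was not separated from the spread between mice.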
